A study of Mus musculus with 15 samples.

Results

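Corticotropin-releasing hormone (Crh), its relative urocortin (Ucn), their receptors Crhr1 and Crhr2, the binding protein Crhbp, and the corticosteroid receptors Nr3c1 and Nr3c2 were followed through the 5 groups of the series. These 7 genes were chosen by name out of 24831 gene names in the table, and they were listed there as 21 transcripts. Hypothalami had been taken from outbred CD-1 mice at postnatal day 15 and their total RNA sequenced, in a study whose title concerns thyroid hormone and the F2 generation. There were 15 samples, 3 for each of the groups PGM, PGF, HM, HF and Control. All groups shared the strain, the age and the tissue. The labels do not spell out what the group codes stand for, nor the sex of the mice or whether tissue of several mice was pooled, so the codes are used as given.

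Neurons of the paraventricular nucleus of the hypothalamus release Crh into the vessels that lead to the pituitary, where it acts on Crhr1 of corticotropes and drives the secretion of adrenocorticotropic hormone. The adrenal gland answers with glucocorticoid, which binds Nr3c1, the glucocorticoid receptor, and Nr3c2, the mineralocorticoid receptor, in brain and pituitary and restrains Crh neurons. Crhbp is a secreted protein that binds Crh and Ucn and limits their action, and Crhr2 prefers the urocortins over Crh.

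The values were the authors' deposited RPKM (reads scaled to the length of the transcript and to the library), already averaged over each group. Each group therefore had 1 value per transcript with no spread, and no SD, p-value or order beyond replicate error could be given. A gene's value is the median over its transcripts. All differences are log2(RPKM + 0.5) of the first group minus that of the second, a scale that understates differences at low levels. The threshold for a count was 1.5-fold on this scale, and the 17481 genes whose mean over the groups was 1 RPKM or more were compared. All 7 genes passed this filter, and Ucn, with the lowest mean at 1.80 RPKM, would have passed without its highest group as well (mean of the other groups 1.33 RPKM). Sequencing depth was unknown, so no interval is given.

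The hypothalamic label was met in every group by Avp (266.8 to 658.5 RPKM) and Oxt (210.4 to 503.6 RPKM), but markers of neighbouring tissue differed between groups. The summed level of 8 thalamic markers was 434 RPKM in PGM, 420 in PGF, 248 in HM, 165 in HF and 170 in Control. Gh, a pituitary hormone gene, was at 1363 RPKM in PGF and at 16.5 to 62.1 RPKM in the other groups. The Y-linked gene Ddx3y was at 30.4 RPKM in PGM, 32.0 in PGF, 16.8 in HM, 15.9 in HF and 2.52 in Control. The part of these tissue and sex differences in the results that follow was not tested. In bulk tissue, fewer cells of a type and less RNA per cell cannot be told apart, and this holds for every value given here.

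Of the peptide genes, Crh lies on chromosome 3 (19693401 to 19695396, minus strand) and Ucn on chromosome 5 (31138063 to 31138829, minus strand), in GRCm38, the assembly also called mm10. The ends of their coding sequences are shown because these encode most of the mature peptides, and because they let a reader judge whether reads of one gene could be taken for the other. Each line is the last 129 bases of the coding sequence in GENCODE M21, stop codon included, from chr3:19693913-19694041 and chr5:31138152-31138280. Capitals mark the bases that are the same at that position in both genes.
Crh: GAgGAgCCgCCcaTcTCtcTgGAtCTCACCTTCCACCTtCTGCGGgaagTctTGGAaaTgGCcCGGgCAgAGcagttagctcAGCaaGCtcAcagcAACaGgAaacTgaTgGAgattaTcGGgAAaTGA
Ucn: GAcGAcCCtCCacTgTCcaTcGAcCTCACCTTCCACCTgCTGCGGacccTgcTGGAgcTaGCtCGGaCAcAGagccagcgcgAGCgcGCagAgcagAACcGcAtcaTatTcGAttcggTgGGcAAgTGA
In this stretch 72 of 129 bases, 55.8%, were identical, and the longest unbroken run was 14 bases. No longer stretch was shared anywhere in the annotated transcripts of Crh and Ucn. The longest shared stretch was 24 bases between Crhr1 and Crhr2 and 17 bases between Nr3c1 and Nr3c2, so the members of each pair are far from near-identical copies.

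Ucn, a peptide best known from neurons of the Edinger-Westphal nucleus in the midbrain, had the widest range of the 7 genes. It was at 0.73 RPKM in PGM, 1.16 in PGF, 3.71 in HM, 2.07 in HF and 1.35 in Control. The HM value stood above those of all the other groups, HF came next, and PGM was lowest. Between HM and PGM the plain ratio was 5.08 and the fold on the log2(RPKM + 0.5) scale 3.42, and a range this wide between highest and lowest group was found in 56 of the 17481 genes, 0.32%.

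Against Control, the difference of Ucn was -0.59 for PGM, -0.16 for PGF, 1.19 for HM and 0.47 for HF. In HM it was 2.28-fold higher than in Control, and 25 genes, 0.143% of those compared, differed by at least as much in this comparison. HM against HF gave 0.71, or 1.64-fold, and PGM against PGF gave -0.43. Ucn was the only one of the 7 genes that reached 1.5-fold in any of the 6 comparisons made. It did so in HM against Control, in HM against HF and, at 1.504-fold and so barely, in PGM against Control. With a pseudocount of 1 the PGM difference was -0.44, under the threshold.

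These counts stand against a background that differed between comparisons. Of all genes, 4.64% reached 1.5-fold in either direction in PGM against Control, 4.06% in PGF, 1.54% in HM and 0.835% in HF. The share was 0.99% between PGM and PGF and 1.68% between HM and HF. In the 2412 genes with a mean from 1 to under 3 RPKM, where Ucn lies, it was 9.99% for PGM against Control, 4.06% for HM against Control and 4.6% for HM against HF. The shares of 0.32% and 0.143% given above for Ucn were over genes of all levels. They were not computed among genes of its level, where large differences were more common. The level of Ucn was low in reads as well. With its longest annotated transcript of 504 bases, the RPKM values correspond to 0.368 reads per 1000000 mapped reads in PGM, 0.585 in PGF, 1.87 in HM, 1.04 in HF and 0.68 in Control. No annotated gene overlaps Ucn, and Trim54, its nearest coding neighbour, lies 433 bases away on the other strand.

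**Figure D1:**
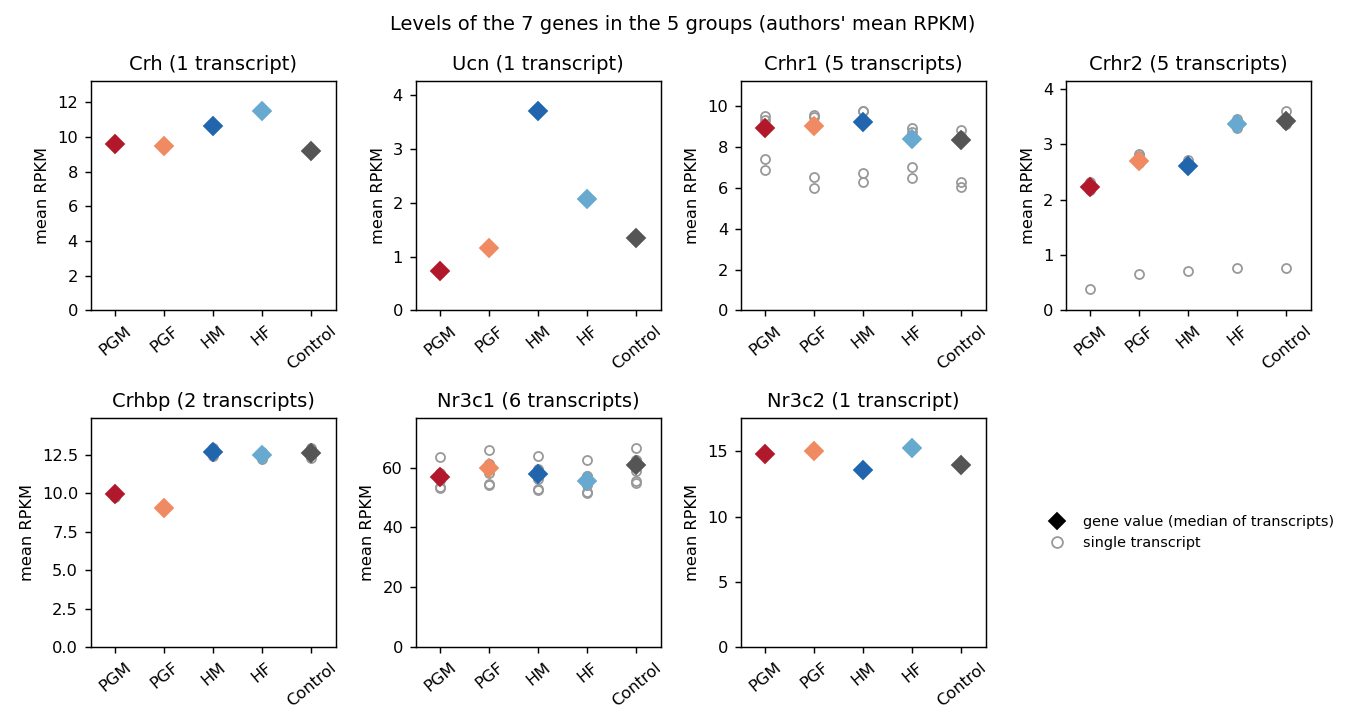
Mean RPKM (vertical axes, from 0) of the 7 genes in the groups PGM, PGF, HM, HF and Control, with diamonds for the gene value and open circles for single transcripts where a gene has more than 1. Ucn is the gene whose groups lie farthest apart, at 3.71 RPKM in HM and 0.73 in PGM, while Crhr1, Nr3c1 and Nr3c2 are nearly level.

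The genes with the pattern most like that of Ucn were sought among 14011 other named genes by the distance between their 5 group values, on the log2(RPKM + 0.5) scale with each gene's mean taken off. Cartpt was the nearest, at a distance of 0.52. It encodes the CART peptide, which is abundant in arcuate neurons and is also made by the urocortin neurons of the Edinger-Westphal nucleus. Cartpt was at 83.5 RPKM in PGM, 90.8 in PGF, 175 in HM, 150 in HF and 108 in Control, the same order of groups as Ucn. Plin4, a lipid droplet protein gene, came second at 0.59 with 1.24 RPKM in PGM, 1.71 in PGF, 3.09 in HM, 2.91 in HF and 1.67 in Control. Sult1a1, a sulfotransferase gene, came next at 0.68 with 13.0, 18.0, 25.7 and 22.6 RPKM in PGM, PGF, HM and HF, and 17.2 in Control. A likeness over 5 group means is a description with few points, and the groups share their tissue differences.

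Markers of the midbrain, in which Ucn neurons lie, also differed between groups. Of 9 measured genes of midbrain dopamine neurons, none was higher in PGM than in Control, and 6 each were higher in PGF, HM and HF. Their summed level was 232 RPKM in PGM, 399 in PGF, 343 in HM, 467 in HF and 290 in Control. Slc6a3, the dopamine transporter, was at 46.0 RPKM in PGM, 110 in PGF, 76.9 in HM, 123 in HF and 58.1 in Control. Both the sum and Slc6a3 were highest in HF and were higher in PGF than in HM, whereas Ucn was highest in HM and lower in PGF than in Control. Foxa1 of the same list had Control highest, at 1.04 RPKM in PGM, 1.58 in PGF, 1.87 in HM, 2.15 in HF and 2.32 in Control. Nr4a2 and Lmx1a were likewise lower than Control in each of PGM, PGF, HM and HF. Of the list for Edinger-Westphal and oculomotor neurons, 6 of 9 genes passed the filter. Of these 6, 2 were higher than Control in PGM, none in PGF, 4 in HM and 6 in HF, with medians of -0.05, -0.18, 0.14 and 0.33, and Cartpt in HM was the only value at 1.5-fold. Chat, the enzyme that makes acetylcholine, was at 4.28 RPKM in PGM, 4.55 in PGF, 5.54 in HM, 7.0 in HF and 4.81 in Control. Phox2a, a transcription factor of oculomotor and other brainstem neurons, was under the filter at 0.25 to 0.46 RPKM over the groups, and Tbx20 was at 0.05 RPKM or less. The summed level of the 6 genes, most of it Cartpt, was 128 RPKM in PGM, 130 in PGF, 221 in HM, 203 in HF and 153 in Control. Its order of groups is that of Cartpt, the gene already named for its likeness to Ucn, so it adds nothing to that likeness. The other measured genes of the list differed from Control in HM by -0.17 to 0.19. The part of midbrain tissue in the Ucn values was not tested.

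**Figure D2:**
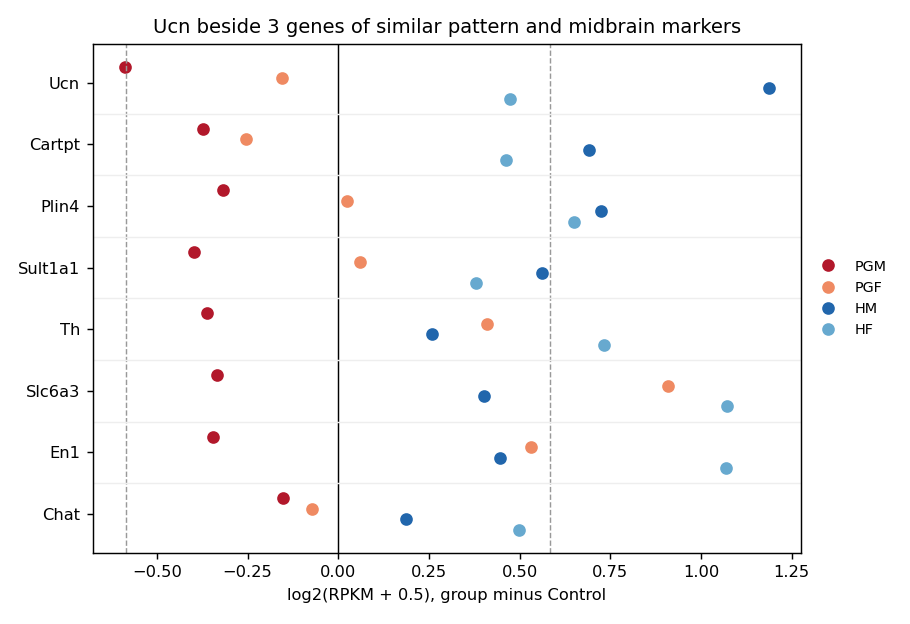
Difference from Control in log2(RPKM + 0.5) (horizontal axis) of Ucn, of the 3 genes of most similar pattern (Cartpt, Plin4, Sult1a1) and of the midbrain markers Th, Slc6a3, En1 and Chat, with a point for each of PGM, PGF, HM and HF and dashed lines at 1.5-fold. HM is the highest group for Ucn, at 1.19, while HF is the highest for the midbrain markers shown, at 1.07 for Slc6a3. Th, Slc6a3 and En1 are from the dopamine neuron list and Chat from the Edinger-Westphal and oculomotor list. Foxa1, Nr4a2 and Lmx1a of the dopamine neuron list are not shown and were lower than Control in each of PGM, PGF, HM and HF.

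The promoter of Ucn is shown because Ucn was the gene that differed most. The line gives the 250 bases before the RefSeq start site, chr5:31138896-31139145 on the minus strand of GRCm38.p6, with the cyclic AMP response element TGACGTCA in capitals.
Ucn promoter: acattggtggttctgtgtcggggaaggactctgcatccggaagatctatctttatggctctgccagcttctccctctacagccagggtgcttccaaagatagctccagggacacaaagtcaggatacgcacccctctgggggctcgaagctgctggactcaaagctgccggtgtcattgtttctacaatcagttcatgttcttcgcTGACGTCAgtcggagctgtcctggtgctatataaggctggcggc
This element, the site bound by factors that answer to cyclic AMP, began 44 bases before the start. It was searched on both strands, and 508 of 32851 promoter windows of the same length, 1.55%, held it. Crh and Nr3c1 had no promoter entry, so their windows could not be searched. Among the 5 of the 7 genes with an entry, the element was found only in the Ucn window, so Ucn and Crh cannot be compared on it. A match is a description and says nothing on whether the site was in use in these samples.

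Crh itself was at 9.62 RPKM in PGM, 9.48 in PGF, 10.6 in HM, 11.5 in HF and 9.19 in Control. Control was the lowest group and HF the highest, and the plain ratio between these was 1.25. The difference from Control was 0.06 for PGM, 0.04 for PGF, 0.20 for HM and 0.31 for HF. Differences of at least that size were found in 75.6% of genes for PGM, 82.1% for PGF, 21.6% for HM and 4.07% for HF. The position of Control as lowest gives all 4 differences the same sign. Set against HF in place of Control, Crh differed by -0.25 in PGM, -0.27 in PGF and -0.11 in HM. PGM and PGF differed by 0.02, and HM and HF by -0.11.

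Avp, Oxt and Trh, which are also peptide genes of the paraventricular nucleus, were lower than Control in all 4 groups. Crh was above Control in all 4, though by little in PGM and PGF. Avp, which acts with Crh on corticotropes, differed by -0.90 for PGM, -1.30 for PGF, -0.33 for HM and -0.34 for HF. Oxt, the oxytocin precursor, differed by -0.80, -1.26, -0.13 and -0.27 in the same groups. Trh, the releasing hormone for thyrotropin, differed by -0.62, -0.83, -0.28 and -0.12. The transcription factors Otp and Sim1, which are needed for neurons of this nucleus to form, were lower than Control in all 4 groups. Otp was at 3.56 RPKM in PGM, 3.15 in PGF, 5.07 in HM, 6.05 in HF and 8.45 in Control, and Sim1 at 2.83, 2.88, 4.39 and 4.83 RPKM in PGM, PGF, HM and HF, and 5.68 in Control. Of 6 such transcription factors, 6 were lower in PGM, PGF and HM and 5 in HF, with medians of -0.50, -0.43, -0.28 and -0.20, beside medians over all genes of 0.005, -0.03, -0.03 and 0.02. Crh is also expressed outside this nucleus, in cortex and amygdala among other regions, and the part of such tissue in its level was not tested.

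Of the remaining urocortins, Ucn3, a ligand of Crhr2 made in the hypothalamus, was at 3.56 RPKM in PGM, 3.67 in PGF, 3.77 in HM, 4.26 in HF and 4.56 in Control. Its differences from Control were -0.32 for PGM, -0.28 for PGF, -0.24 for HM and -0.09 for HF, with Control highest, where Crh had Control lowest. Ucn2 was listed at 0.05 RPKM or less in every group and at 0 in PGF. Pomc, the corticotropin precursor of pituitary and arcuate cells, was at 370 RPKM in PGF beside the high Gh value of that group. It was at 16.1 RPKM in PGM, 22.4 in HM, 20.5 in HF and 24.3 in Control.

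Crhbp, on chromosome 13 (95431371 to 95444924, minus strand), split the groups in another way. It was at 9.92 RPKM in PGM, 9.03 in PGF, 12.7 in HM, 12.5 in HF and 12.6 in Control. PGM and PGF were the low groups, while HM, HF and Control were level, with HM against HF at 0.02. The difference from Control was -0.33 for PGM, -0.46 for PGF, 0.01 for HM and -0.01 for HF, and both transcripts of the gene gave like values (-0.35 and -0.31 in PGM, -0.48 and -0.43 in PGF). None of these reached 1.5-fold. Differences at least as large were found in 16.3% of genes for PGM and 7.64% for PGF.

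Crhbp is made by interneurons of the cortex and by other neurons of the forebrain. Of 6 markers of such interneurons, 5 were lower in PGM and in PGF than in Control, 3 in HM and 2 in HF. These markers are not specific to cortex in this tissue. Lhx6 also stands in the list of hypothalamic transcription factors and Vip in that of stress axis peptides. Reln, a secreted matrix protein gene, was at 22.2 RPKM in PGM, 21.4 in PGF, 24.7 in HM, 31.9 in HF and 32.0 in Control, while Pvalb, which is also made by neurons of the thalamic reticular nucleus, was at 68.8, 84.2, 59.9 and 38.4 RPKM in PGM, PGF, HM and HF, and 30.3 in Control. The part of these cells in the Crhbp values was not tested. As both peptide and binding protein are given per length of transcript, their levels can be set side by side. The ratio of Crh to Crhbp was 0.97 in PGM, 1.05 in PGF, 0.838 in HM, 0.923 in HF and 0.729 in Control. It was lowest in Control, through lower Crh in Control relative to HM and HF and through higher Crhbp in Control relative to PGM and PGF.

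**Figure D3:**
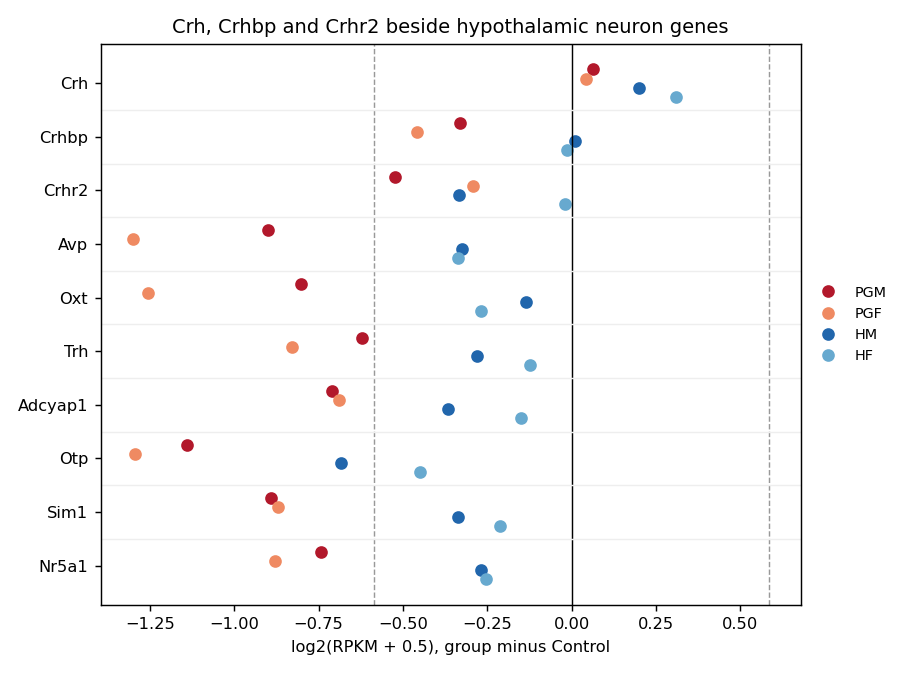
Difference from Control in log2(RPKM + 0.5) (horizontal axis) of Crh, Crhbp and Crhr2 beside the peptide genes Avp, Oxt, Trh and Adcyap1 and the transcription factors Otp, Sim1 and Nr5a1, with a point for each of PGM, PGF, HM and HF and dashed lines at 1.5-fold. Crh lies above 0 in all 4 groups, up to 0.31 in HF, while Avp, Oxt, Trh, Adcyap1, Otp, Sim1 and Nr5a1 lie below 0 in all 4.

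Of the receptors for these peptides, Crhr1 (chromosome 11, 104132855 to 104175523, plus strand) was nearly level. It was at 8.93 RPKM in PGM, 9.0 in PGF, 9.22 in HM, 8.4 in HF and 8.35 in Control. Its differences from Control were 0.09 for PGM, 0.10 for PGF, 0.14 for HM and 0.01 for HF, and 79.4% of genes had a range between groups at least as wide. The sign in HF turned to -0.001 with upper quartile scaling.

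The 5 transcripts of Crhr1 fell into sets by level and by pattern. The transcripts uc007lvz.1, uc011yfy.1 and uc007lwc.1 lay between 8.35 and 9.76 RPKM and were highest in HM. The transcripts uc007lwa.1 and uc007lwb.1 were lower and had their highest value in PGM. The transcript uc007lwa.1 was at 7.41 RPKM in PGM, 6.51 in PGF, 6.73 in HM, 7.02 in HF and 6.3 in Control, and uc007lwb.1 at 6.86, 5.98, 6.3 and 6.47 RPKM in PGM, PGF, HM and HF, and 6.04 in Control. PGM against PGF was 0.17 and 0.18 for these transcripts and between -0.02 and -0.004 for the other three. The labels and headers do not tell how reads shared by isoforms were assigned, so these differences between transcripts are uncertain.

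Crhr2 (chromosome 6, 55090049 to 55133016, minus strand), which is expressed in the ventromedial nucleus, in the choroid plexus and in vessel walls, was lower than Control in PGM, PGF and HM. It was at 2.22 RPKM in PGM, 2.69 in PGF, 2.6 in HM, 3.36 in HF and 3.41 in Control. HF and Control were level and PGM was lowest. Crhr2 differed from Control by -0.52 in PGM, 1.44-fold and just under the threshold, -0.29 in PGF, -0.33 in HM and -0.02 in HF. Differences of at least that size were found in 6.03% of genes for PGM, 19.1% for PGF and 8.07% for HM. With a pseudocount of 0.1 the PGM difference was -0.60 and passed 1.5-fold.

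All 5 Crhr2 transcripts were lower in PGM than in Control, by -0.55 to -0.51, and all 5 were lower in PGF and in HM. The transcript uc009cam.1 stood apart by its level, at 0.39 RPKM in PGM, 0.66 in PGF, 0.72 in HM, 0.77 in HF and 0.77 in Control. It differed from Control by -0.06 in HM, where the other four differed by -0.35 to -0.33. PGM against PGF was -0.23 for Crhr2, and HM against HF -0.32, so within each of these pairs the first group was lower.

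Markers of the ventromedial nucleus, of vessels and of the choroid plexus were set beside Crhr2. Nr5a1, the defining factor of the ventromedial nucleus, was at 3.03 RPKM in PGM, 2.71 in PGF, 4.41 in HM, 4.46 in HF and 5.41 in Control, lower than Control in all 4 groups. Of 10 vessel markers, 10 were lower than Control in PGM and in HM, 6 in PGF and 3 in HF. Among them Kdr, a receptor for vascular growth factor on endothelium, was at 8.89 RPKM in PGM, 11.6 in PGF, 9.13 in HM, 12.5 in HF and 13.8 in Control, the same order of groups as Crhr2. Flt1 shared this order and the other vessel markers did not. Pdgfrb, for one, was lowest in HM, at 14.3 RPKM, and highest in HF, at 21.5 RPKM. Acta2, the actin of smooth muscle in vessel walls and the vessel marker with the largest difference, had another order, at 14.9 RPKM in PGM, 22.6 in PGF, 17.2 in HM, 45.3 in HF and 19.6 in Control. The summed level of the 7 measured choroid plexus genes was 127 RPKM in PGM, 472 in PGF, 44.4 in HM, 40.9 in HF and 28.4 in Control. Without Ttr the sum of the other 6 was 21.3 RPKM in PGM, 31.1 in PGF, 21.7 in HM, 22.2 in HF and 21.4 in Control, nearly level outside PGF. Of all 7 choroid plexus genes, 5 were higher than Control in PGM, 6 in PGF and 4 each in HM and HF. Folr1 was higher in all 4 groups, with differences of 0.67 in PGM and 1.74 in PGF. Kcnj13, a potassium channel of the choroid plexus, went the other way. It was lower than Control in all 4 groups, with differences of -1.19 in PGM and -0.89 in HM. The part of these tissues in the Crhr2 values was not tested. The ratio of Crhr1 to Crhr2, both per length of transcript, was 4.02 in PGM, 3.35 in PGF, 3.55 in HM, 2.5 in HF and 2.45 in Control.

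Of the corticosteroid receptors, Nr3c1 (chromosome 18, 39410545 to 39519421, minus strand) had the highest level of the 7 genes and the smallest range. It was at 57.0 RPKM in PGM, 59.8 in PGF, 57.8 in HM, 55.7 in HF and 60.7 in Control. Control was the highest group, and the plain ratio of highest to lowest was 1.09, a range that 83.1% of genes reached or passed. The differences from Control were -0.09 for PGM, -0.02 for PGF, -0.07 for HM and -0.12 for HF, and all 6 transcripts, which ranged from 51.6 to 66.7 RPKM, were lower than Control in each group. In HF the difference was of a size that 25% of genes reached.

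Nr3c2 (chromosome 8, 76899442 to 77245012, plus strand), which binds corticosterone with higher affinity than Nr3c1 does, was at 14.8 RPKM in PGM, 15.0 in PGF, 13.6 in HM, 15.3 in HF and 14.0 in Control. HF was highest and HM lowest. The differences from Control were 0.08 for PGM, 0.10 for PGF, -0.04 for HM and 0.12 for HF, and HM against HF was -0.17. A long noncoding RNA on the opposite strand overlaps Nr3c2 by 1180 bases, and without knowledge of strand in the counting its reads cannot be told apart there. The ratio of Nr3c1 to Nr3c2 was 3.85 in PGM, 3.99 in PGF, 4.26 in HM, 3.65 in HF and 4.34 in Control.

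**Figure D4:**
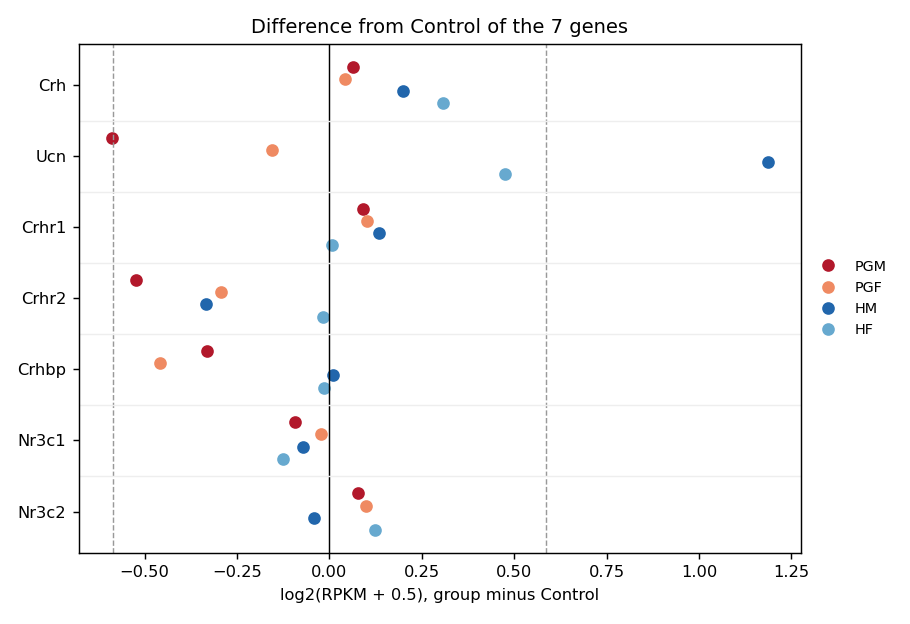
Difference from Control in log2(RPKM + 0.5) (horizontal axis) of the 7 genes, with a point for each of PGM, PGF, HM and HF and dashed lines at 1.5-fold. Ucn in HM at 1.19 and in PGM at -0.59 are the only points at or past a line, Crhr2 in PGM at -0.52 lies just inside it, and the points of Crhr1, Nr3c1 and Nr3c2 all lie within 0.14 of 0.

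Over the 7 genes together, 3 were higher and 4 lower in PGM and in PGF than in Control, and 4 were higher and 3 lower in HM and in HF. The median difference was -0.09 for PGM, -0.02 for PGF, 0.01 for HM and 0.01 for HF, beside medians of 0.005, -0.03, -0.03 and 0.02 over all genes. Between PGM and PGF the median was -0.02 with 2 higher and 5 lower, and between HM and HF it was 0.02 with 4 higher and 3 lower.

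The genes through which corticosteroid receptors act were described from lists, each read against the share of all genes that was higher than Control, 50.9% for PGM, 44.2% for PGF, 39.8% for HM and 58.6% for HF. Genes known to respond to glucocorticoid were higher than Control in 9 of 16 members for PGM, 12 for PGF, 15 for HM and 14 for HF, with medians of 0.03, 0.18, 0.25 and 0.20. Zbtb16, a zinc finger factor induced by glucocorticoid, was at 10.3 RPKM in PGM, 11.3 in PGF, 16.7 in HM, 11.3 in HF and 9.54 in Control. Fkbp5, a cochaperone that lowers the affinity of Nr3c1 for its ligand, was at 14.6 RPKM in PGM, 14.0 in PGF, 21.2 in HM, 15.9 in HF and 14.8 in Control, so HM stood apart. Dusp1, a phosphatase gene that also answers to neuronal activity, was instead highest in PGF, at 29.2 RPKM beside 20.4 in PGM, 20.0 in HM, 20.5 in HF and 16.6 in Control. Plin4 and Sult1a1, named above for their likeness to Ucn, stand in the same list. Of its members, none reached 1.5-fold for PGM, 1 did for PGF, 2 for HM and 1 for HF, and all were higher than Control. Over all genes the share at 1.5-fold in either direction was 4.64%, 4.06%, 1.54% and 0.835% in these comparisons.

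Coregulators that steroid receptors recruit were lower than Control in 12 of 12 members in PGM and in PGF and in 11 of 12 in HM and in HF, with medians of -0.13, -0.20, -0.13 and -0.09. Crebbp, a histone acetyltransferase, was at 45.2 RPKM in PGM, 41.9 in PGF, 47.3 in HM, 50.5 in HF and 57.4 in Control. Chaperones that hold the receptors ready for ligand were higher than Control in 10 of 12 members for PGM, 8 for PGF, 11 for HM and 7 for HF, and their medians were small, 0.10, 0.08, 0.06 and 0.01.

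Among genes that make, inactivate or export corticosteroids, Hsd11b1, which regenerates active glucocorticoid inside cells, was at 10.2 RPKM in PGM, 11.6 in PGF, 8.66 in HM, 9.08 in HF and 8.5 in Control. Its difference was 0.25 in PGM and 0.43 in PGF. Hsd11b2, which inactivates glucocorticoid and so protects Nr3c2, was at 0.37 RPKM or less in all groups. None of the 7 measured genes of this list reached 1.5-fold in any group.

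**Figure D5:**
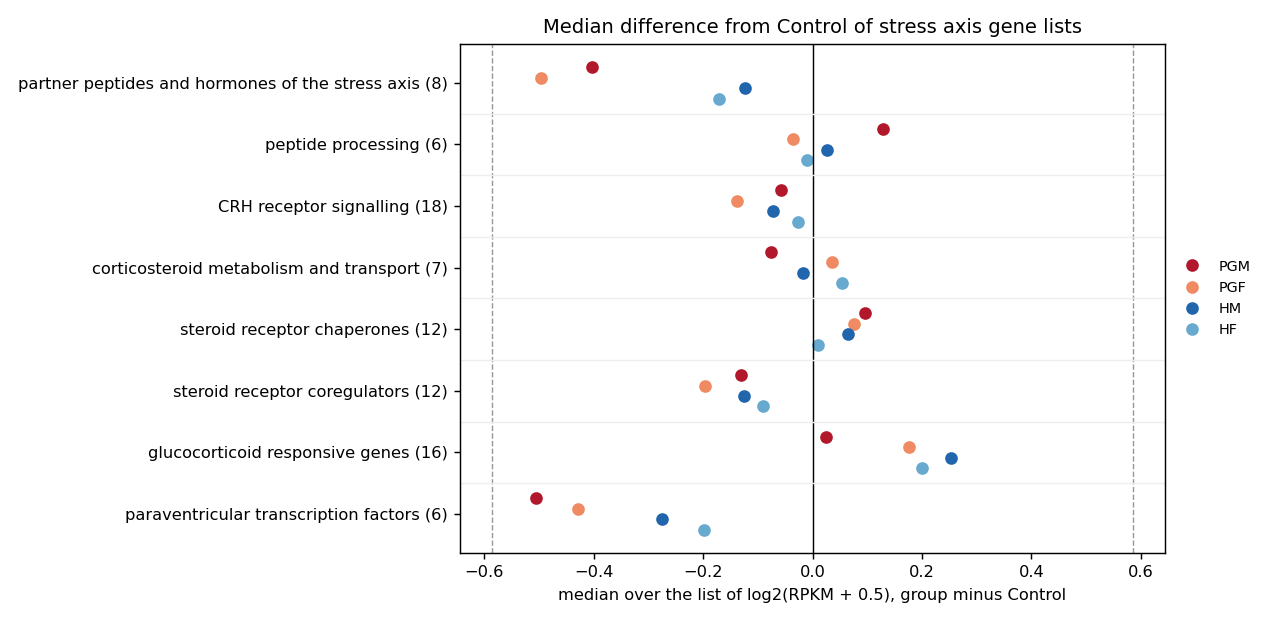
Median over each of 8 stress axis gene lists of the difference from Control in log2(RPKM + 0.5) (horizontal axis), with the number of measured genes in brackets, a point for each of PGM, PGF, HM and HF and dashed lines at 1.5-fold. Of the lists plotted, glucocorticoid responsive genes lie highest, at 0.25 in HM, and the transcription factors of the paraventricular nucleus lowest, at -0.50 in PGM.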

How the data were processed

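The 15 RNA samples came from hypothalami of CD-1 mice aged 15 postnatal days, and their titles gave 5 groups of 3. RPKM values were deposited for 49404 transcripts, averaged by the authors over each group, per the file headers, and rounded to 2 decimals. Reads were checked with FastQC and aligned with Novoalign 2.08 to mm10, per the submitters' processing notes. The counting program, its use of strand and of reads shared by isoforms, and the read depth are not stated in the labels or headers. An average hides a sample that stands apart, and RPKM depends on what other genes take of a library.

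A gene's value was the median of its transcripts, and 17481 of 24831 names with a mean of at least 1 RPKM were kept, with a pseudocount of 0.5. With group means there was no test. Each group was compared with Control, PGM with PGF and HM with HF. The named genes were the 7 genes, the 3 of most similar pattern for those reaching 1.5-fold between groups (names without function left out), up to 4 of the largest difference per list, and Avp, Oxt, Trh, Pomc, Cartpt, Ucn2 and Ucn3. Gh, Ddx3y, Phox2a, Tbx20, Hsd11b2, Nr4a2, Lmx1a, Flt1 and the neighbour Trim54 were added outside this rule after their values were seen. The members and the 21 lists, with 178 of 198 entries measured, were chosen with earlier results of these data known. Alternatives were other pseudocounts, filters, scaling, transcript summaries, threshold and reference. Positions and coding sequences come from GENCODE M21, the promoter from RefSeq (GRCm38.p6), in which 5 of the 7 genes had an entry. Calculations were tested on simulated data. Python 3.11.15, numpy 2.4.6, pandas 2.3.3 and matplotlib 3.10.9 were used.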

Additional observations from a re-analysis of the deposited data

How the results depend on the processing

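With group means only, leaving out replicates was not possible. No paired analysis was possible because the table holds 1 mean per group and its columns carry no replicate number. Of 303 values of single genes under an alternative, 299 kept their side of 1.5-fold. The number of the 7 genes at 1.5-fold in PGM against Control was 1, and it was 2 with a pseudocount of 0.1 (Ucn and Crhr2), 0 with a pseudocount of 1, 0 with a mean of at least 3 RPKM and 0 at 2-fold. In HM against Control it was 1 and became 0 with a mean of at least 3 RPKM, and in HM against HF it was 1 and became 0 with that filter and at 2-fold. A filter of 3 RPKM removes Ucn and Crhr2 altogether. In PGM against PGF it was 0 and became 1, Ucn, with a pseudocount of 0.1. Under processing alternatives 3 of 282 values changed sign, each 0.02 or less in size with the settings reported. With HF as the reference 8 of 21 did, those of Crh in all 3 groups, Nr3c1 in all 3 and Nr3c2 in PGM and PGF, and Ucn in PGF reached -0.63.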

Other observations

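Genes that process neuropeptide precursors and genes that carry the signal of Crh receptors were also described. Of 6 processing genes, 4 were higher than Control for PGM, 3 for PGF, 3 for HM and 2 for HF, and none reached 1.5-fold. Pcsk1, the convertase that makes the first cuts in many precursors, was at 31.1 RPKM in PGM, 32.8 in PGF, 37.1 in HM, 38.7 in HF and 39.6 in Control. Its partner Pcsk2 had the opposite order, at 89.4 RPKM in PGM, 88.0 in PGF, 79.4 in HM, 72.9 in HF and 72.3 in Control. Pam, which amidates peptides such as Crh, was at 213 RPKM in PGM, 217 in PGF, 247 in HM, 255 in HF and 258 in Control.

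Of 18 genes of receptor signalling, 11 were lower than Control for PGM, 14 for PGF, 13 for HM and 12 for HF, with medians of -0.06, -0.14, -0.07 and -0.03. Adcy1, an adenylyl cyclase of thalamus and cortex, was at 80.4 RPKM in PGM, 70.3 in PGF, 52.5 in HM, 49.4 in HF and 45.1 in Control. Rgs4, a regulator of G protein signalling abundant in thalamus, was at 433 RPKM in PGM, 438 in PGF, 308 in HM, 272 in HF and 274 in Control. These were the only 2 genes of the list at 1.5-fold, in PGM and in PGF, the groups with the highest summed level of thalamic markers. Over all genes 4.64% reached 1.5-fold in PGM and 4.06% in PGF. The part of thalamic tissue in these values was not tested.

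The remaining lists of brain regions gave these values. Hypothalamic transcription factors were lower than Control in 15 of 16 members in PGM, 16 in PGF and 13 each in HM and HF, with medians of -0.24, -0.60, -0.23 and -0.11. Genes of cortex and hippocampus had 6 of 9 members lower in each of PGM, PGF and HM and 5 in HF, with medians of -0.22, -0.14, -0.05 and -0.07. Those at 1.5-fold were higher, Slc17a7 (1.39 in PGM and 1.43 in PGF) and Prox1 (0.81 and 0.68), and the summed level was 201 RPKM in PGM, 207 in PGF, 168 in HM, 152 in HF and 155 in Control. Striatal genes had 6 of 8 members higher in PGM, 5 each in PGF and HM and 7 in HF, with medians of 0.73, 0.39, 0.27 and 0.33. Of the stress axis peptides and hormones, 6 of 8 were lower in PGM and in HF and 7 in PGF and in HM, with medians of -0.40, -0.50, -0.12 and -0.17. Pituitary genes had medians of -0.46 for PGM, 3.36 for PGF, -0.32 for HM and -1.17 for HF over 7 members. Of 4 serotonin neuron genes only En2 passed the filter.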
